A study of Mus musculus with 6 samples.

Results

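The matrix metalloproteinases (MMPs), the ADAMTS proteases, the ADAMTS-like (ADAMTSL) proteins and their tissue inhibitors (TIMPs) were examined in ear skin of mice in which Kdr, the gene of the receptor VEGFR2, had been deleted in the lymphatic endothelium. Members were the rows of the count table whose symbol is that of a numbered Mmp, Adamts, Adamtsl or Timp gene. This gave 50 of 18482 genes: 22 MMP, 19 ADAMTS, 5 ADAMTSL and 4 TIMP genes. Libraries of polyadenylated RNA came from 3 mice labelled Control and 3 labelled lecko, all treated with tamoxifen and sampled at postnatal day 21. The controls were littermates, the Cre line is not given in the sources used here, and the tamoxifen schedule of these mice is not stated among those listed for the series. The labels do not tie a library to a litter or to other separate sources, so p-values here reflect only how these 6 samples scatter, which may be partly technical.

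MMPs are zinc proteases that cut collagens, elastin and other matrix proteins, and most are made as inactive precursors. ADAMTS proteases carry thrombospondin repeats and trim procollagens, cleave proteoglycans or act on microfibrils, while ADAMTSL proteins share the repeats but lack the protease domain. TIMPs bind the active site of MMPs, and TIMP3 also inhibits ADAMTS enzymes. ADAMTS3 has a particular place in lymphatic biology: together with CCBE1 it cuts the precursor of VEGFC, which then activates VEGFR3 and VEGFR2 on lymphatic endothelium. In skin these genes are expressed by fibroblasts, keratinocytes, vessels and leukocytes, and bulk RNA cannot tell fewer cells of a type from less RNA per cell.

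Total estimated counts were 17242921 to 17825135 per library, of which the 50 members held between 0.31% and 0.411%. Kdr gave 566, 545 and 674 counts in controls 1 to 3 and 173, 198 and 180 in lecko 1 to 3, a log2 fold change of -1.72 (SE 0.10), for which edgeR's quasi-likelihood fit with Benjamini-Hochberg adjustment gave an adjusted p of 0.00026. Levels in CPM are counts scaled to the library total over tested genes times its TMM normalization factor. Markers of skin were present, with the keratinocyte gene Krt5 at 3680 to 4330 CPM and a fibroblast list of 7 genes summing to 22200 to 35800 CPM. Counts of 4 Y-linked genes were 4272 and 4564 in controls 2 and 3 and 4 to 21 in the other 4 libraries. Sex therefore differs between the groups, with control 1 the sole control below the threshold of 10 CPM (here of the unscaled library total), as all lecko libraries are.

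The chromosome 9 cluster of MMP genes is shown first, because most of its members share a short promoter sequence not seen in the promoters available for other members. It holds 9 members within 402 kb (GRCm38.p6): Mmp13, Mmp12, Mmp1b, Mmp3, Mmp1a, Mmp10, Mmp8, Mmp27 and Mmp20, in the order of their starts. In the 250 bases before a RefSeq start, the letters TGANTCA occurred in 7 of 10 cluster promoters and in 0 of 27 promoters of other members. With G or C at N this is the core sequence bound by the transcription factor AP-1. The match was TGAATCA in Mmp20, and TGAGTCA or TGACTCA in the other cluster promoters that held one. Over all 32851 promoters of the table, 6.75% held TGANTCA with any base at N, read on both strands. The promoters of the collagenase gene Mmp13, the macrophage elastase gene Mmp12 (at the second of its listed starts), the stromelysin gene Mmp3 and, for contrast, Adamts3 are printed 5′ to 3′ in the direction of transcription, with TGANTCA in capitals.
Mmp13 (chr9:7272264-7272513, plus strand): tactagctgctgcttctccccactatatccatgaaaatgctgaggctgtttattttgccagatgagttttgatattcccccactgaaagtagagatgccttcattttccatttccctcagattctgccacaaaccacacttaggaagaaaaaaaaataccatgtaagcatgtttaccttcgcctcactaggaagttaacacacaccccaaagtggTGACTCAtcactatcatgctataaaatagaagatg
Mmp12 (chr9:7347124-7347373, plus strand): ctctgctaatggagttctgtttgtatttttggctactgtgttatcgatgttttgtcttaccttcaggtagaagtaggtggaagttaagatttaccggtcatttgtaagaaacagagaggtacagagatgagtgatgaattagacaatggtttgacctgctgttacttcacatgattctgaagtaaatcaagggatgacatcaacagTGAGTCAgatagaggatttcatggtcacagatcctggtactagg
Mmp3 (chr9:7445572-7445821, plus strand): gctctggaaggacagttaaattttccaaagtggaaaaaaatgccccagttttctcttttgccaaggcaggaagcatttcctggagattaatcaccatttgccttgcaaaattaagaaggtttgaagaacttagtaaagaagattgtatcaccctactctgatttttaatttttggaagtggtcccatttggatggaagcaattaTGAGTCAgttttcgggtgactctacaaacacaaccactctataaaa
Adamts3 (chr5:89883335-89883584, minus strand): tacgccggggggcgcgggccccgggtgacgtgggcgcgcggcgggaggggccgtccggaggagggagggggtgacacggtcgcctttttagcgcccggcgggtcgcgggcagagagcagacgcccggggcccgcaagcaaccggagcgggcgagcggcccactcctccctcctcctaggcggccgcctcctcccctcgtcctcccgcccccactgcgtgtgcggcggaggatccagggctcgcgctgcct
The match began 35 bases before the start in Mmp13, 44 in Mmp12 and 46 in Mmp3. The promoter at the first listed Mmp12 start (chr9:7344147-7344396) held no TGANTCA. Adamts3 had no TGANTCA in this window, which was 78.0% G and C, against 37.6% for Mmp3 and a median of 52.4% over all promoters. The Adamts3 window lies wholly within the span of the gene (chr5:89673841-89883668), so it does not precede the outermost start. A match is a description of the letters and not of binding. Of the cluster genes with enough counts to test, Mmp3 had a log2 fold change (lecko over control) of -0.41, Mmp12 of 0.70 and Mmp27 of -0.07, none past the threshold over all genes.

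Levels of different genes were compared as CPM per kilobase of merged exons (GENCODE M21, available for all 50 members). Mmp2, which encodes gelatinase A, was the most abundant member at 182 CPM per kb in controls and 222 in lecko skin. Timp2, whose product takes part with membrane-type MMP14 in activating pro-MMP2, followed at 176 and 213, and the matrix-bound inhibitor Timp3 at 93.7 and 122. Adamts1, a proteoglycanase, stood at 40.8 and 45.5, and Mmp14 at 41.7 and 41.1. Adamts3 ranked 17 of 50 at 4.60 and 6.51, below its relatives Adamts2 (20 and 21.5) and Adamts14 (14.7 and 14.3), which remove the amino-terminal propeptides of procollagens. Mmp14 and Adamts1 were neighbours that changed places in this order between the groups.

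**Figure D1:**
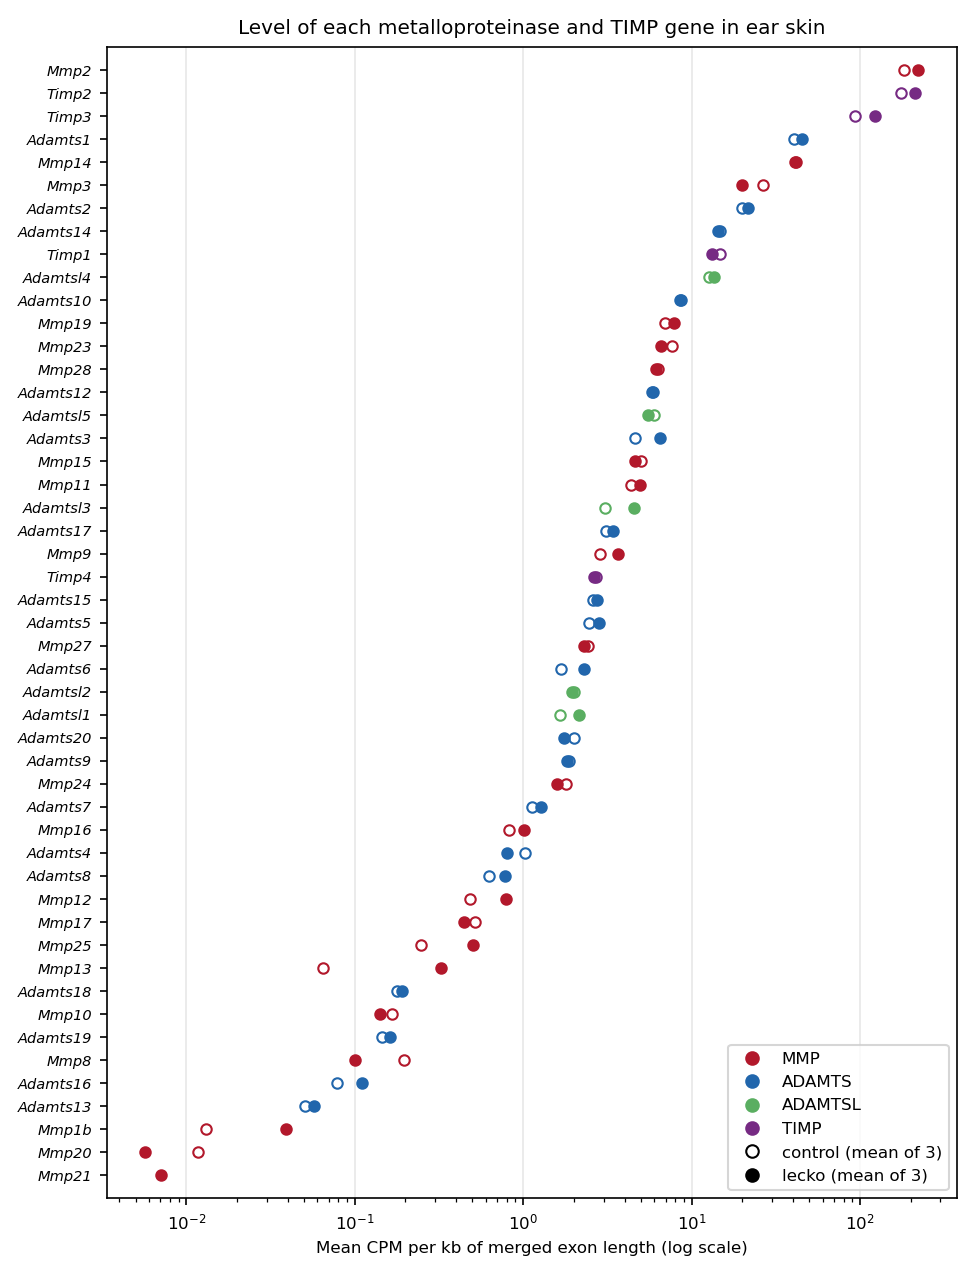
Mean CPM per kilobase of merged exon length (log scale) of 49 members with a count, ordered by level, with open symbols for the control mean and filled symbols for the lecko mean (3 libraries each) and colours for the 4 families. Mmp2, Timp2 and Timp3 lead, and levels run from 222 down to 0.00572 CPM per kb; a group mean of 0 is not drawn.

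The 8 members with too few counts to be tested were Mmp1a, Mmp1b, Mmp8, Mmp10, Mmp13, Mmp20, Mmp21 and Adamts13, the gene of the von Willebrand factor protease. None exceeded 25 counts in any library, and Mmp1a had no count at all. Mmp13 gave 6, 0 and 3 counts in controls and 25, 14 and 7 in lecko libraries. Each lecko library thus lay above each control, at a depth where control 2 had none. The matrilysin gene Mmp7 is not analysed here. Mmp8, the neutrophil collagenase gene, gave 4, 14 and 7 counts in controls and 7, 4 and 2 in lecko libraries, which overlap. The 4 collagenase genes of the table were therefore all outside the reported fit. In the fit with no filter on low counts, and in those without control 1, 2 or 3 or without lecko 3, Mmp13 was tested and had an unadjusted p under 0.05. With a library left out, it passed the filter only through its counts of 25 and 14 in lecko 1 and 2. Those p-values are therefore not independent support for a difference.

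No member passed the threshold over all genes. Of 42 members tested with edgeR's quasi-likelihood fit, 0 had an adjusted p under 0.05, and over the 14856 genes tested the share was 0.0202%, which is Kdr and 2 other genes (0.0135% of genes higher and 0.00673% lower). Without adjustment, 8 members had a p under 0.05, 7 higher and 1 lower in lecko skin. That is 19.0% of the members, where 8.56% of all genes tested reached it. By direction, 4.89% of all genes were higher and 3.68% lower at that level. The groups did not overlap for 8 members (19.0%), 5 of them higher and 3 lower, against 14.6% of all genes tested (7.37% higher and 7.23% lower). The median log2 fold change was 0.10 over the members and 0.01 over all genes tested, and 25 of the 42 members were above 0, where 51.9% of all genes were. DESeq2 and limma-voom also called 0 members, with 10 members each at an unadjusted p under 0.05 (23.8%), where 6.52% of all genes reached it by DESeq2 and 8.98% by limma-voom.

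The families differed little in their medians. Of 15 tested MMP genes 7 had a positive and 8 a negative log2 fold change, with a median of -0.02 and the widest range, -0.41 to 1.04. Of 18 tested ADAMTS genes 13 were positive and 5 negative (median 0.12, range -0.34 to 0.50). The 5 ADAMTSL genes had a median of 0.09 (range -0.13 to 0.58) and the 4 TIMP genes a median of 0.12 (range -0.15 to 0.38). Summed over its members, the TIMP family was at 1400, 1780 and 1250 CPM in controls and 1920, 1750 and 1890 CPM in lecko libraries. The MMP family summed to 1010, 1200 and 967 CPM in controls and 1180, 1190 and 1180 CPM in lecko libraries. In both sums control 2 stood with the lecko libraries and controls 1 and 3 lay lower.

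**Figure D2:**
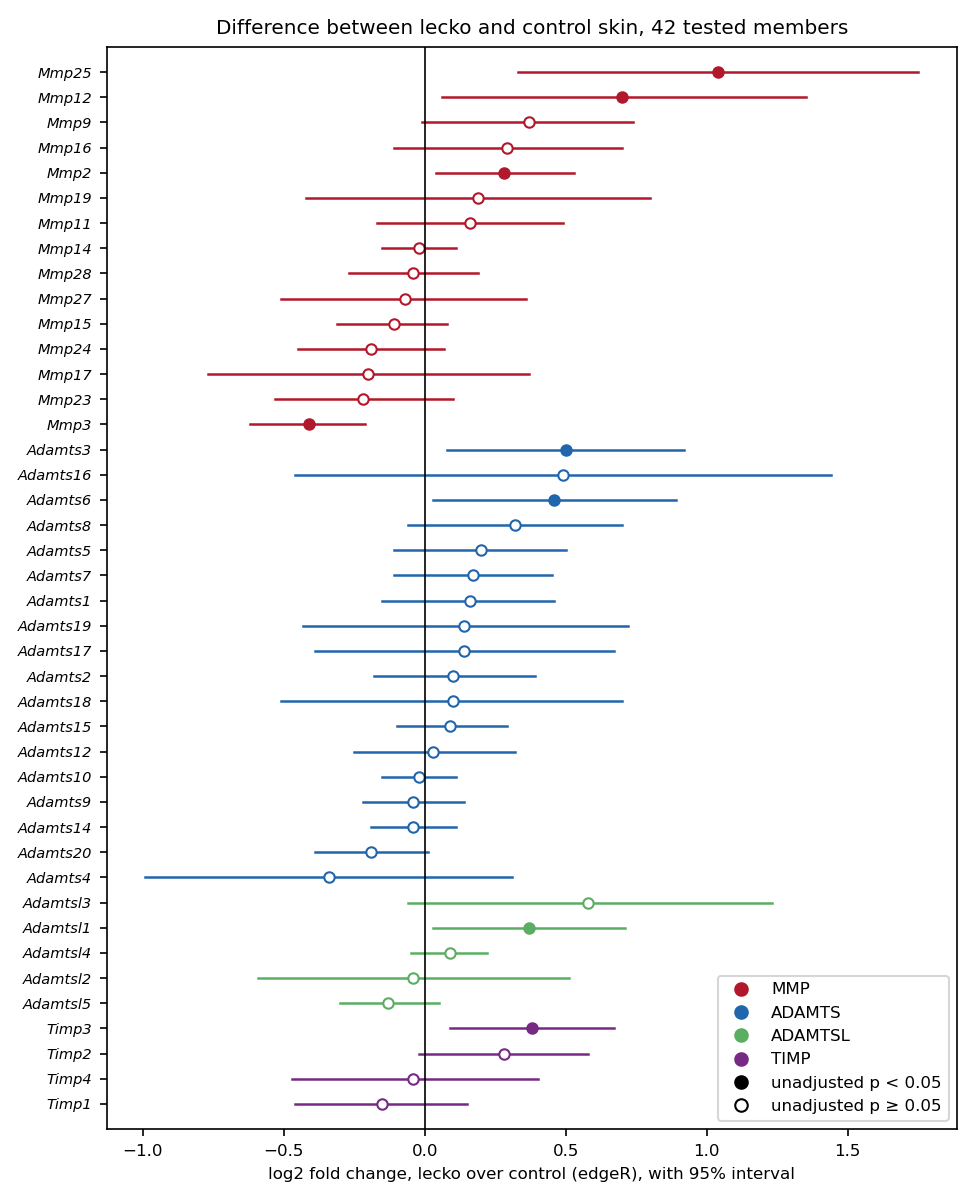
Log2 fold change (x axis, lecko over control, edgeR) with its 95% interval for each of the 42 tested members, grouped and coloured by family, filled where the unadjusted p was under 0.05. Most intervals include 0, and Mmp3 is the sole filled symbol on the lower side.

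Single libraries weighed on this count. The 7 members on the higher side compare with 14 without control 2, 2 without control 1, 4 without control 3, 1 without lecko 1, 6 without lecko 2 and 3 without lecko 3. Mmp13 is 1 of those in each of the fits without control 1, 2 or 3 or lecko 3. There it passed the filter on low counts through its lecko counts alone. Without control 1, Mmp25 alone of the 7 is left. The share of all genes with an unadjusted p under 0.05 varied too. In either direction, members and all genes were at 34.9% and 11.6% without control 2, 6.98% and 4.81% without control 1, and 16.3% and 7.05% without control 3. They were at 7.14% and 8.39% without lecko 1, 19.0% and 9% without lecko 2, and 9.30% and 5.36% without lecko 3. With sex as a covariate 4 were higher (Adamts3, Adamts5, Adamtsl3 and Mmp25) and 1 lower (Mmp3), which is 11.9% of the members beside 5.22% of all genes. In that fit the log2 fold changes of Mmp3, Mmp25, Timp3 and Adamts3 were -0.40, 1.28, 0.45 and 0.75, and without controls 2 and 3 they were -0.40, 1.28, 0.44 and 0.74. Mmp3 and Mmp25 stayed under an unadjusted p of 0.05 in all 17 settings, the reported fit included, Timp3 in 13, Adamts3 and Adamtsl1 in 12, Mmp2 and Mmp12 in 11 and Adamts6 in 10. Control 2 was the highest control for 25 of the 42 tested members (59.5%), against 34.0% of all genes tested. For 17 of the 25 members with a positive fold change, control 2 lay at or above the lowest lecko library.

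**Figure D3:**
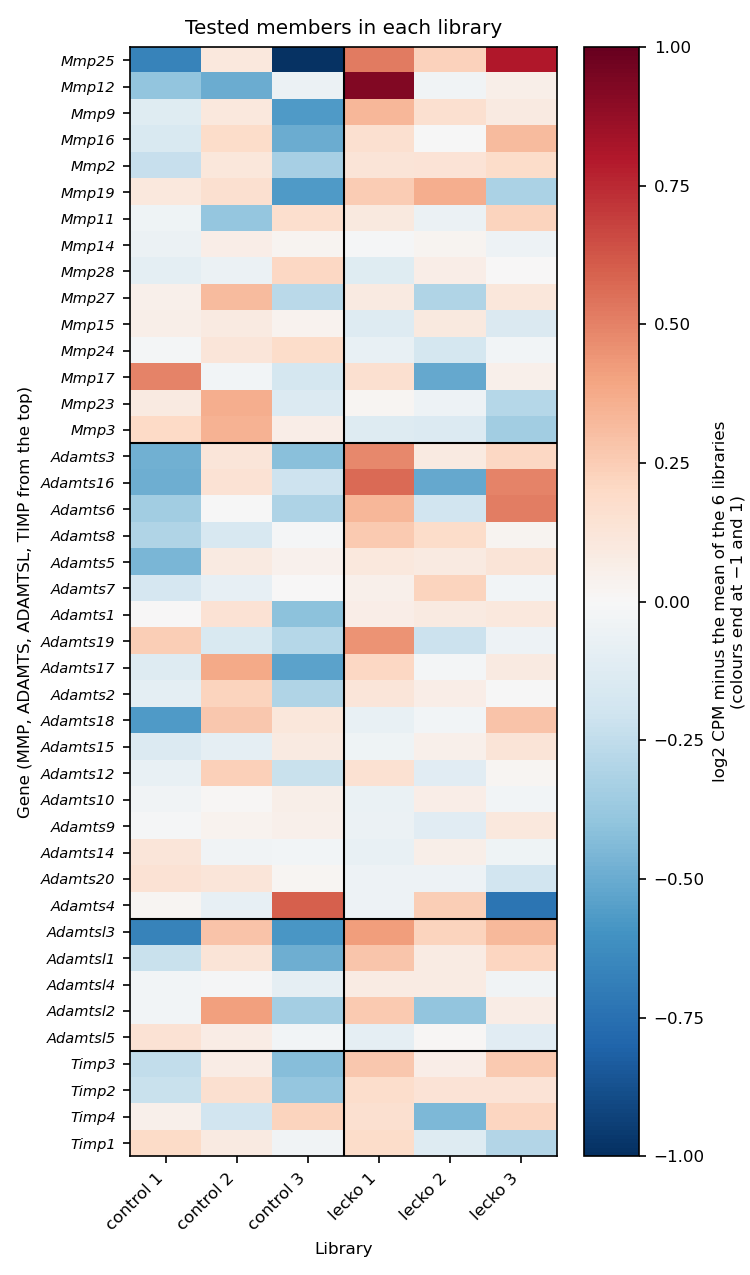
Log2 CPM of each tested member in each library, minus the mean of the 6 libraries (colour scale ending at -1 and 1), with controls on the left and lecko on the right. Control 2 is closer in colour to the lecko libraries than controls 1 and 3 are for Timp2, Timp3, Mmp2, Adamts3 and Adamtsl3.

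Among the stromelysins, Mmp3, which degrades many matrix proteins and activates other pro-MMPs, had the smallest p of all members and lay lower in lecko skin (gene at chr9:7445822-7455975, GRCm38.p6). It gave 818, 912 and 757 counts in controls and 667, 661 and 570 in lecko libraries. In CPM this was 47.2, 52.4 and 43.2 against 37.6, 37.4 and 32.3, so every lecko library lay below every control. The log2 fold change was -0.41 (SE 0.09, 95% interval -0.62 to -0.21). By edgeR the unadjusted p was 0.00144 and the adjusted p 0.379. DESeq2 gave an adjusted p of 0.0805. Mmp11, the other stromelysin tested, overlapped between groups with 12.2 ± 2.32 CPM among controls and 13.6 ± 1.33 CPM among lecko libraries (SD over 3 libraries).

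Mmp3 and Mmp2 are both products of dermal fibroblasts, and their ratio separated the groups. Counts of Mmp3 were 0.0820, 0.0719 and 0.0805 times those of Mmp2 in controls and 0.0511, 0.0504 and 0.0423 times in lecko libraries. The groups did not overlap (log2 difference -0.71). An exact two-sided permutation gave p = 0.1, which no 3 against 3 comparison can go below. It is 1 of 20 ratios that were chosen after values had been seen, and 10 of these reached that permutation p (0.2 after Benjamini-Hochberg adjustment). Set against the fibroblast receptor gene Pdgfra, Mmp3 was at 0.403, 0.365 and 0.354 in controls and 0.254, 0.266 and 0.200 in lecko libraries, which did not overlap, while Mmp2 was at 4.80 ± 0.349 and 4.99 ± 0.274 (SD over 3 libraries), which did. Set against the collagen gene Col1a1, Mmp3 overlapped, at 0.00788, 0.00657 and 0.00890 in controls and 0.00653, 0.00686 and 0.00629 in lecko libraries (log2 difference -0.24, exact permutation p = 0.2).

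Among the gelatinases, Mmp2 (chr8:92827290-92853421) was at 575, 729 and 537 CPM in controls and 737, 741 and 765 CPM in lecko libraries. The lecko libraries lay close together and above all controls, although control 2 was just below lecko 1. The log2 fold change of Mmp2 was 0.28 (SE 0.11, 95% interval 0.04 to 0.53, unadjusted p = 0.0277, adjusted p = 0.541 by edgeR). Mmp9, the gelatinase B gene that neutrophils, macrophages and keratinocytes express, was at 10.4, 12.1 and 7.59 CPM in controls and 14.2, 12.6 and 12.0 CPM in lecko libraries. Its log2 fold change was 0.37 (95% interval -0.01 to 0.74), and control 2 overlapped the lecko group.

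The inhibitors showed 2 patterns. Timp2 was at 643, 838 and 573 CPM in controls and 848, 822 and 823 CPM in lecko libraries, a log2 fold change of 0.28 (SE 0.13, adjusted p = 0.596 by edgeR). Timp3 (chr10:86300412-86349505) was at 731, 912 and 646 CPM in controls and 1040, 906 and 1040 CPM in lecko libraries, a log2 fold change of 0.38 (SE 0.13, unadjusted p = 0.016, adjusted p = 0.511 by edgeR). In both genes control 2 lay within the lecko range and controls 1 and 3 below it. Timp1, an inducible inhibitor, was at 14.1, 13.1 and 12.0 CPM in controls and 13.9, 11.2 and 9.99 CPM in lecko libraries, and Timp4 at 16.1, 13.6 and 18.2 CPM in controls and 17.3, 11.3 and 18 CPM in lecko libraries. Both overlapped between groups, with log2 fold changes of -0.15 and -0.04. Timp1, Timp3 and Timp4 lie within the synapsin genes Syn1, Syn3 and Syn2 on the opposite strand. Timp3 shares 21.3% of its exon length with Syn3, which had 27.41 to 45.55 counts per library against 11309 to 18451 for Timp3.

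Mmp2 and Timp2 stood in nearly the same ratio in every library, and Mmp14 did not vary with them. Mmp2 counts were 0.901 ± 0.0333 times those of Timp2 in controls and 0.900 ± 0.0299 times in lecko skin (SD, n = 3 each, exact permutation p = 0.9). Mmp14, the membrane-type enzyme that activates pro-MMP2, was at 237, 258 and 251 CPM in controls and 245, 251 and 238 CPM in lecko libraries. Its log2 fold change was -0.02 (95% interval -0.15 to 0.11). Mmp2 counts were therefore 2.43, 2.83 and 2.14 times those of Mmp14 in controls and 3.01, 2.95 and 3.21 times in lecko libraries. The groups did not overlap (exact permutation p = 0.1).

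**Figure D4:**
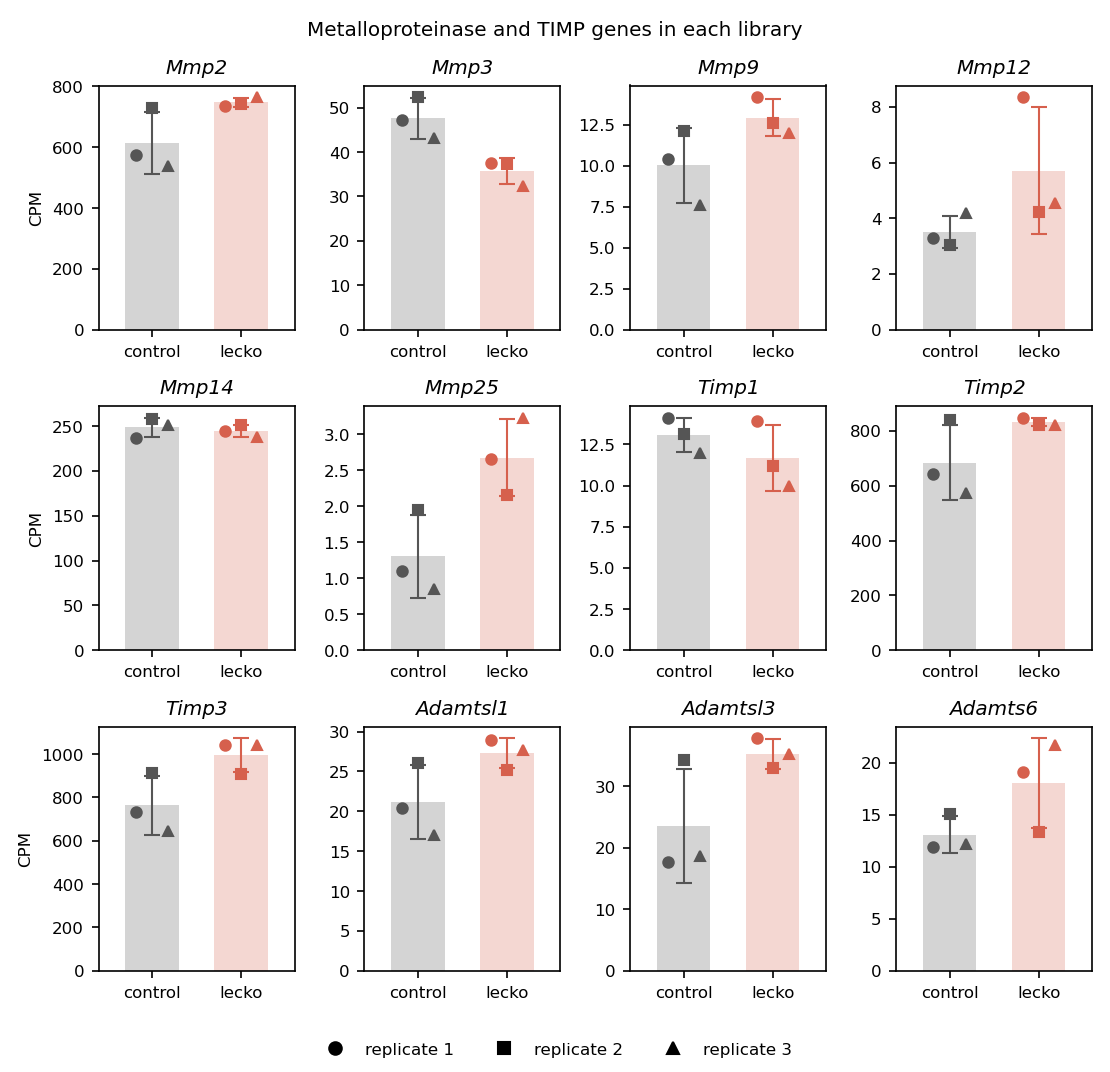
CPM of 12 members in each library (points, with a shape for each replicate number), with bars for the group mean and error bars for the SD of 3 libraries. Mmp3 lies lower in all lecko libraries, Mmp14 is level, and in Timp2, Timp3, Adamtsl1, Adamtsl3 and Adamts6 control 2 reaches the lecko range.

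The other membrane-type and secreted MMPs were mostly level. Mmp25 (chr17:23628315-23645269), a membrane-anchored MMP known from neutrophils, had the largest fold change of the 42 tested members, from few counts: 19, 34 and 15 in controls and 47, 38 and 57 in lecko libraries. The log2 fold change was 1.04 (SE 0.31, 95% interval 0.33 to 1.75), unadjusted p = 0.00919 and adjusted p = 0.504 by edgeR, and control 2 came within 4 counts of lecko 2. Mmp15, Mmp16, Mmp17 and Mmp24 had log2 fold changes from -0.20 (Mmp17) to 0.29 (Mmp16). Of these Mmp24 alone did not overlap, with 8.44 ± 0.600 CPM among controls and 7.39 ± 0.394 CPM among lecko libraries (SD over 3 libraries). Mmp12 (chr9:7344397-7360461), expressed by macrophages, gave 57, 53 and 73 counts in controls and 148, 75 and 80 in lecko libraries, so the difference rests largely on lecko 1. Its log2 fold change was 0.70 (SE 0.28, adjusted p = 0.552 by edgeR), and 0.32 without lecko 1. Mmp19, Mmp23, Mmp27 and Mmp28 overlapped between groups, with log2 fold changes of 0.19, -0.22, -0.07 and -0.04. Mmp23 was at 17.6, 21.3 and 15.1 CPM in controls and 16.8, 16.1 and 13.6 CPM in lecko libraries (SE 0.14, adjusted p = 0.69 by edgeR). Mmp19 shares 22.3% of its exon length with Tmem198b on the opposite strand, and its counts, like those of Mmp28, are not whole numbers.

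Leukocyte marker levels are given beside these genes. The macrophage list (7 of 7 genes counted, 0 at 0) summed to 363 to 602 CPM in controls and 543 to 706 CPM in lecko libraries, highest in lecko 1, where Mmp12 was also highest. The pan-leukocyte list of 5 genes summed to 143 to 203 CPM in controls and 207 to 280 CPM in lecko libraries. All 5 had positive log2 fold changes (median 0.56). Of them 4 (Ptprc, Cd48, Cd52 and Coro1a) were higher at an unadjusted p under 0.05 by edgeR, without overlap. The 7 macrophage genes were all positive (median 0.40), 2 of them at that level (Cd68 and Mrc1) and 0 without overlap. Among all genes tested, 4.89% were higher at that level and 7.37% were higher without overlap. The neutrophil list of 6 genes ranged from 7.99 to 111 CPM in controls and from 14.0 to 116 CPM in lecko libraries, lowest of the lecko group in lecko 3, where Mmp25 was highest, and its genes Ly6g and Retnlg had too few counts to test. Most of that sum in controls 1 and 3 and lecko 1 and 2 came from S100a8 and S100a9. Csf3r, the neutrophil growth factor receptor gene in the list, was at 2.19, 2.18 and 2.28 CPM in controls and 5.81, 3.11 and 3.23 CPM in lecko libraries. Like Mmp25 it did not overlap between groups (log2 0.87, unadjusted p = 0.00945, adjusted p = 0.504 by edgeR). The other tested genes of the list overlapped. Cxcr2 was at 7.67, 3.51 and 6.68 CPM in controls and 8.01, 6.67 and 6.41 CPM in lecko libraries (log2 0.24). S100a8 and S100a9 had log2 fold changes of -0.17 and 0.07. Counts of Mmp12 were 0.119 ± 0.0619 times those of the macrophage gene Adgre1 in controls and 0.117 ± 0.0199 times in lecko skin (SD, n = 3 each). Set against the macrophage gene Csf1r they were 0.0323 ± 0.0122 and 0.0377 ± 0.0115 times. The mean log2 differences of these ratios were 0.09 and 0.25 (exact permutation p = 0.9 and 0.4). The part of leukocyte number in the values of Mmp9, Mmp12 and Mmp25 was not tested. Of other cell types, 6 of 6 endothelial markers were lower at an unadjusted p under 0.05 (Kdr among them, 5 without overlap), with sums of 306 to 338 CPM in controls and 241 to 259 CPM in lecko libraries. Of 7 lymphatic endothelial markers 5 were negative, and 2 (Reln and Ccl21a) were lower at that level, without overlap. Their sums were 359 to 409 CPM in controls and 311 to 338 CPM in lecko libraries. Of 6 pericyte and smooth muscle markers 3 were lower at that level (Acta2, Rgs5 and Tagln) and 2 were positive. The 4 tested hair shaft markers were all positive (median log2 0.91), 0 of them at that level. All 7 skeletal muscle markers had negative log2 fold changes, 4 of them at that level, with sums of 3890 to 4290 CPM in controls and 2760 to 3760 CPM in lecko libraries. Over all genes tested, 3.68% were lower and 4.89% higher at that level. Of 6 tested cartilage markers Matn3 was higher at that level, at 1.10, 1.49 and 0.685 CPM in controls and 2.88, 2.77 and 2.10 CPM in lecko libraries. The part of these cell types in the members' values was not tested.

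Adamts3 was the ADAMTS protease with the smallest p. It gave 365, 555 and 384 counts in controls and 726, 552 and 597 in lecko libraries, or 21.0, 31.9 and 21.9 CPM against 41.0, 31.2 and 33.9 CPM. Controls 1 and 3 lay below all lecko libraries, and control 2 lay just above lecko 2, so the groups overlapped. The log2 fold change was 0.50 (SE 0.18, 95% interval 0.08 to 0.92), unadjusted p = 0.0261 and adjusted p = 0.530 by edgeR. It was 0.71 without control 2 0.39 without control 1 and 0.37 without lecko 1. Adamts3 lies on chromosome 5 from 89673841 to 89883668, and no exon of it overlaps an exon of another gene. Its relatives were level: Adamts2 at 187 ± 34.5 and 201 ± 8.47 CPM, and Adamts14 at 76.2 ± 4.90 and 74.1 ± 3.58 CPM (SD, n = 3 each). Adamts3 counts were 0.117, 0.143 and 0.141 times those of Adamts2 in controls and 0.196, 0.155 and 0.177 times in lecko libraries, without overlap (exact permutation p = 0.1). Over Adamts14 the ratio overlapped, at 0.257, 0.436 and 0.298 in controls and 0.574, 0.399 and 0.465 in lecko libraries (exact permutation p = 0.2), and over Pdgfra it overlapped too (exact permutation p = 0.2).

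The partners of ADAMTS3 in the VEGFC pathway were listed with it. Of 10 genes tested (Vegfc, Vegfd, Ccbe1, Flt4, Kdr, Nrp2, Furin, Pcsk5, Pcsk7 and Ctsd), Kdr, the deleted gene, alone passed over all genes, and 4 were higher at an unadjusted p under 0.05. Over all genes tested, 4.89% were higher at that level. Ccbe1, the cofactor that ADAMTS3 needs, was at 24.7, 23.3 and 19.0 CPM in controls and 35.4, 28.8 and 36.1 CPM in lecko libraries, with every lecko library above every control. Its log2 fold change was 0.58 (SE 0.12, adjusted p = 0.373 by edgeR), and DESeq2 called it (adjusted p = 0.028). Vegfc was at 11.2, 12.3 and 9.76 CPM in controls and 13.8, 12.3 and 14.1 CPM in lecko libraries, where control 2 and lecko 2 nearly coincide. Vegfd was at 9.97, 10.9 and 9.53 CPM in controls and 13.3, 12.6 and 12.5 CPM in lecko libraries. Log2 fold changes were 0.27 for Vegfc, 0.34 for Vegfd and 0.24 for Nrp2 (adjusted p = 0.562, 0.499 and 0.485 by edgeR). Flt4, which encodes VEGFR3, was at -0.16, and the precursor proteases Furin, Pcsk5 and Pcsk7 at 0.11, 0.30 and 0.00. Adamts3 counts were 1.12 ± 0.258 times those of Ccbe1 in controls and 1.06 ± 0.111 times in lecko skin (SD, n = 3 each).

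**Figure D5:**
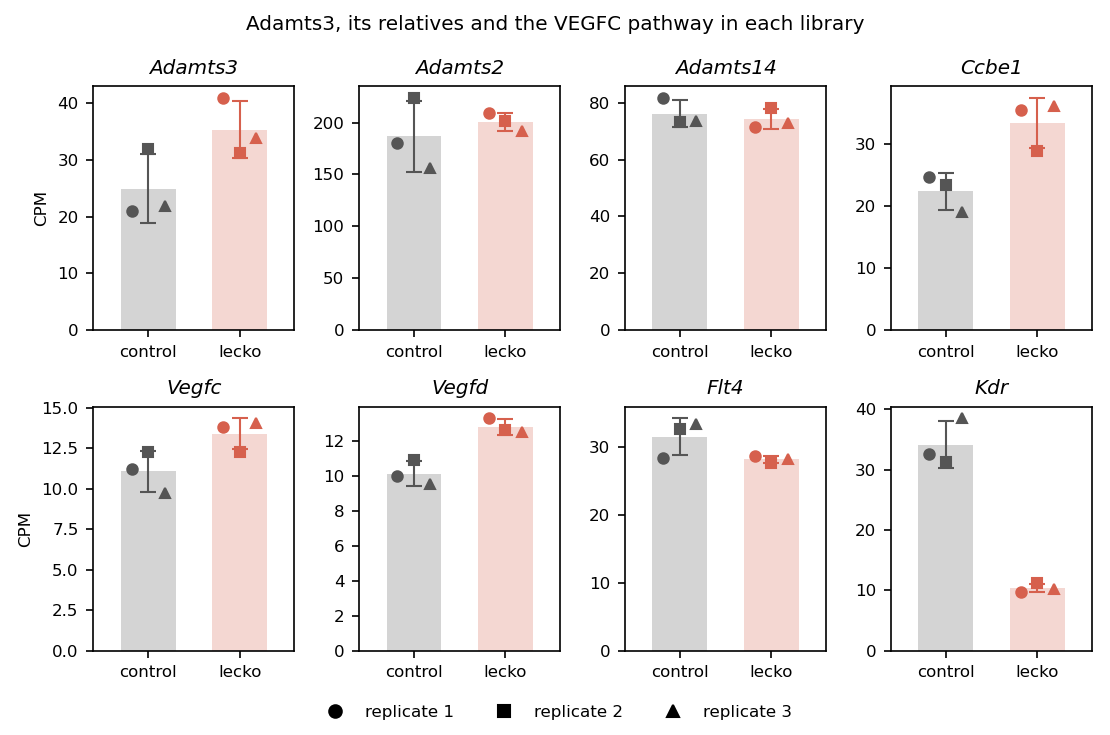
CPM of Adamts3, its relatives Adamts2 and Adamts14, the VEGFC pathway genes Ccbe1, Vegfc, Vegfd and Flt4, and Kdr in each library, with bars for the group mean and error bars for the SD of 3 libraries. Kdr separates the groups, Ccbe1 and Vegfd do not overlap, and in Adamts3 control 2 lies just above lecko 2.

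The proteoglycanases showed small differences. Adamts1 was at 228, 251 and 171 CPM in controls and 237, 241 and 245 CPM in lecko libraries, a log2 fold change of 0.16 (95% interval -0.15 to 0.46). Adamts5, an aggrecanase, was at 20.6, 30.1 and 29.2 CPM in controls and 30.5, 30.2 and 31.0 CPM in lecko libraries. Its groups did not overlap, but control 1 alone lay apart, and the other 5 libraries lay between 29.2 and 31.0 CPM. Adamts4, another aggrecanase, was at 4.27, 3.97 and 6.45 CPM in controls and 4.06, 5.03 and 2.5 CPM in lecko libraries, which overlap (log2 fold change -0.34, 95% interval -0.99 to 0.31). Adamts20, a gene known from its role in mouse coat pigment pattern, was at 18.6, 18.3 and 17 CPM in controls and 16.2, 16.2 and 14.7 CPM in lecko libraries, lower without overlap (log2 -0.19, adjusted p = 0.594 by edgeR). Adamts8 was higher without overlap, at 2.89 ± 0.302 and 3.62 ± 0.305 CPM, and Adamts9 and Adamts15 had log2 fold changes of -0.04 and 0.09.

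Of the remaining ADAMTS genes, Adamts6, related to the microfibril-associated Adamts10, gave 206, 263 and 214 counts in controls and 338, 235 and 382 in lecko libraries. Lecko 2 lay within the controls and lecko 1 and 3 above them, for a log2 fold change of 0.46 (SE 0.19, adjusted p = 0.554 by edgeR). Adamts10 itself was at 71.3 ± 2.32 and 70.3 ± 3.35 CPM (SD, n = 3 each). Adamts7, Adamts12, Adamts16, Adamts17, Adamts18 and Adamts19 had log2 fold changes from 0.03 (Adamts12) to 0.49 (Adamts16), all with intervals that include 0, and Adamts16 had 7 to 17 counts per library.

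The ADAMTSL genes, whose products bind fibrillin microfibrils and other matrix, included the 1 member that passed over all genes when a library was left out. Adamtsl3 gave 307, 597 and 328 counts in controls and 669, 582 and 621 in lecko libraries. Control 2 lay among the lecko libraries while controls 1 and 3 had far fewer counts. The log2 fold change was 0.58 (SE 0.26, adjusted p = 0.608 by edgeR) with all libraries and 0.95 without control 2 (SE 0.10), where Adamtsl3 was the sole member to pass (adjusted p = 0.0129). Adamtsl1 was at 20.4, 26.1 and 17 CPM in controls and 28.9, 25.2 and 27.7 CPM in lecko libraries, a log2 fold change of 0.37 (SE 0.15, adjusted p = 0.552 by edgeR). Adamtsl2, Adamtsl4 and Adamtsl5 had log2 fold changes of -0.04, 0.09 and -0.13 and overlapped between groups. Among 15 genes of fibrillin microfibrils and their partners, 0 had an unadjusted p under 0.05, with a median log2 fold change of 0.06, and Fbn1, the main fibrillin gene, was at 0.17.

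Activators, other inhibitors and substrates of these proteases were counted for context. Of 15 tested activators and inhibitors, 0 passed over all genes and 4 had an unadjusted p under 0.05 (26.7%), beside 8.56% of all genes tested. Reck, a membrane-anchored inhibitor of MMPs, was at 91.5, 121 and 83.7 CPM in controls and 142, 125 and 144 CPM in lecko libraries (log2 0.48, SE 0.14, adjusted p = 0.504 by edgeR). It passed without control 2 (adjusted p = 0.0311). Lrp1, a receptor that clears protease and inhibitor complexes, was at 0.17. A2m, a broad protease inhibitor, was at -0.36, and Bsg, whose product induces MMPs, at -0.17. In these 4 genes the groups did not overlap (26.7% of the 15), beside 14.6% of all genes tested. Of 20 matrix substrates tested 0 had an unadjusted p under 0.05, with Col1a1 at -0.20, Fn1 at 0.32, Vcan at 0.10 and Acan at 0.06. Of 9 tested relatives among the ADAM proteases, 0 had an unadjusted p under 0.05, with a median of 0.08.

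Among controls, though not among lecko libraries, the summed fibroblast list had the same order as the abundant members Mmp2, Timp2 and Timp3. The list summed to 27100, 35800 and 22200 CPM in controls and 29400, 28100 and 26700 CPM in lecko libraries, highest in control 2 and lowest in control 3. In lecko libraries 1 to 3 Mmp2 was at 737, 741 and 765 CPM and Timp3 at 1040, 906 and 1040 CPM, unlike the falling fibroblast sum. Collagen genes make up most of this sum, with log2 fold changes of -0.20 for Col1a1, -0.01 for Col1a2 and 0.01 for Col3a1. The other 4 genes of the list were at 0.24 (Dcn), 0.26 (Lum), 0.21 (Dpt) and 0.23 (Pdgfra, unadjusted p = 0.0252), near the 0.28 of Mmp2 and Timp2. Mmp2, Timp2, Timp3 and Adamts2 were likewise highest among controls in control 2 and lowest in control 3. Relative to the collagen gene Col1a1, Mmp2 was at 0.0962, 0.0915 and 0.111 in controls and 0.128, 0.136 and 0.149 in lecko libraries, and Timp3 at 0.122, 0.114 and 0.133 against 0.181, 0.166 and 0.202. Both were without overlap (exact permutation p = 0.1 each). Relative to Pdgfra, Timp3 was at 6.25, 6.34 and 5.29 against 7.02, 6.46 and 6.42. The log2 difference of the Timp3 ratio was thus 0.57 with Col1a1 as reference and 0.16 with Pdgfra. The part of fibroblast content in these values was not tested.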

How the data were processed

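Polyadenylated RNA of ear skin was sequenced in 3 control and 3 lecko libraries, grouped by sample title. The authors deposited estimated counts per gene (a unit read from the values), of which 9.6 to 10.52% per library were not whole. GRCm38.p6, RSEM 1.3.1, Bowtie2 2.4.5 and HISAT2 2.2.1 are listed per the submitters' processing notes. No source used here gives the strand setting or the annotation, so reads of a gene and of an overlapping antisense gene cannot be told apart.

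Counts were rounded, filtered with filterByExpr (minimum count 10, minimum total 15) and TMM-scaled. The test was edgeR's (version 4.0.16, R 4.3.3) quasi-likelihood test with robust estimation and group alone in the model, with Benjamini-Hochberg adjustment over 14856 genes at 0.05. It was tested on simulated data. The members and lists were chosen with earlier results of these data known. By rule, full values were given for 14 fixed members (Adamts1, 2, 3, 5 and 14, the TIMPs, Mmp2, 3, 9, 13 and 14), those with unadjusted p under 0.05, and the 3 highest and 3 lowest fold changes, with others named by level and fold change. Promoters come from RefSeq (GRCm38.p6), which matched 35 of 50 members. Alternatives were DESeq2 1.42.0, limma-voom (limma 3.58.1), DESeq2's size factors, upper-quartile factors, no filter and a stricter filter on low counts, no robust estimation, a replicate block, sex as a covariate and each library left out. A fit without controls 2 and 3 was added after seeing the data. Ratios of counts were tested by exact two-sided permutation over 20 arrangements.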

Additional observations from a re-analysis of the deposited data

How the results depend on the processing

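With 3 libraries a group, of unequal sex, 0 members passed over all genes in any setting except without control 2, where Adamtsl3 did. DESeq2 called 32 genes (24 higher, 8 lower) where edgeR called 3, and it called Ccbe1 but 0 members. Leaving out each library in turn gave 3 to 37 genes called (37 without control 2, 8 without control 1, 6 without lecko 2) and 0 to 1 members called. Members at an unadjusted p under 0.05 then numbered 1 to 14 on the higher side and 1 to 3 on the lower, where 4.81 to 11.6% of all genes reached that level in either direction. With sex as a covariate 4 were higher (in either direction 11.9% of members and 5.22% of all genes). With upper-quartile factors 2 were lower (in either direction 21.4% of members and 8.76% of all genes). Median log2 fold changes ranged over the left-out libraries from 0.06 to 0.17 for all members, 0.00 to 0.10 for MMPs, 0.02 to 0.21 for ADAMTS, 0.06 to 0.18 for ADAMTSL and 0.06 to 0.22 for TIMPs, and Kdr from -1.78 to -1.62. With sex as a covariate, and without controls 2 and 3, the sign turned for Adamts10 (0.03 and 0.02), Adamts19 (-0.16 and -0.17), Adamtsl2 (0.03 and 0.03), Mmp14 (0.05 and 0.04) and Mmp28 (0.08 and 0.08). A left-out library turned the sign of 15 members near 0, whose log2 fold changes then ranged from -0.06 to 0.00 for Adamts10, -0.07 to 0.17 for Adamts12, -0.08 to 0.01 for Adamts14, -0.05 to 0.41 for Adamts17, -0.13 to 0.27 for Adamts18, -0.10 to 0.32 for Adamts19, -0.01 to 0.25 for Adamts2, -0.11 to 0.00 for Adamts9, -0.20 to 0.18 for Adamtsl2, -0.06 to 0.00 for Mmp14, -0.35 to 0.03 for Mmp17, -0.01 to 0.37 for Mmp19, -0.21 to 0.08 for Mmp27, -0.10 to 0.06 for Mmp28 and -0.15 to 0.15 for Timp4. The cause was not tested. The fit with a replicate block called 3 genes and 0 members, and without adjustment 8 members had a p under 0.05 on the higher side and 1 on the lower. In either direction that was 21.4% of members, beside 8.37% of all genes. The labels of libraries with the same number show no link beyond that number. Correlations of their deviations were 0.337, -0.0722 and 0.0352 for numbers 1 to 3. Between libraries of unlike number they ran from -0.2845 to 0.2338, below the value for number 1. Depth kept 8 members out of the test, with at most 25 counts in any library.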
